A study of Rattus norvegicus with 6 samples.

Results

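The let-7 and miR-98 guide strands are the -5p products of a large microRNA (miRNA) family. They were followed here in neonatal rat cardiac fibroblasts and in the exosomes that these cells shed. The members were the listed entries named let-7 plus a letter and -5p, and miR-98-5p, which gave 8 of 728 mature miRNAs. Fibroblasts came from the hearts of Wistar pups of postnatal day 1 to 2 and were grown with 10% serum. Both groups carried no genetic change or drug: medium with 1% serum cleared of exosomes was conditioned for 48 h, exosomes were pelleted from it by ultracentrifugation, and RNA was taken from the vesicles (3 libraries) and from the cells (3 libraries). The labels do not say whether libraries of a group came from separate cultures, so a p-value covers only the spread between these libraries, which may be technical.

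As background, a miRNA hairpin is cut into 2 strands. The guide strand is loaded into an Argonaute protein and pairs with messenger RNAs through its seed, the bases near its 5′ end, which lowers the output of those messengers. The passenger strand, here the -3p arm, is mostly degraded. The let-7 family is held low in early embryonic cells by the LIN28 proteins and accumulates as cells differentiate, and it is known for repressing growth genes such as RAS, MYC and HMGA2.

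The 8 guide strands share 1 seed, and they are printed together because reads are told apart only by the bases outside it. The files put rno, for rat, before each name (rno-let-7a-5p, rno-let-7f-5p, rno-miR-98-5p). Each is written 5′ to 3′ with the seed (bases 2 to 8) in capitals, from RefSeq (GRCr8).
let-7a-5p: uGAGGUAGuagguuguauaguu
let-7b-5p: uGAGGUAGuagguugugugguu
let-7c-5p: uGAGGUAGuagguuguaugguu
let-7d-5p: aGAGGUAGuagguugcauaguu
let-7e-5p: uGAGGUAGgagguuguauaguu
let-7f-5p: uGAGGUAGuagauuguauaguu
let-7i-5p: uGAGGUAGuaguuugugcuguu
miR-98-5p: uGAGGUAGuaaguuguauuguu

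All 8 are 22 bases long, so their counts compare at equal length. Counting positions from 1 at the 5′ end and giving the base of let-7a-5p first, let-7c-5p differed from let-7a-5p by A19G, let-7e-5p by U9G and let-7f-5p by G12A. let-7b-5p differed by A17G and A19G, let-7d-5p by U1A and U16C, miR-98-5p by G11A and A19U, and let-7i-5p by G12U, A17G, U18C and A19U. In 4 pairs the members were thus 1 base apart, let-7a with let-7c, let-7e and let-7f, and let-7b with let-7c, and the split of reads within such pairs is uncertain. No other listed miRNA with a RefSeq sequence (655 of 728) carried this seed. let-7g-5p, which RefSeq lists with the same seed, is not analysed here, so the summed counts below include no entry of that name.

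In GRCr8 the genes lie in small clusters. let-7a-1, let-7f-1 and let-7d sit together on chromosome 17 (chr17:16320145-16322294 from the first guide strand to the last, plus strand), let-7c-2 and let-7b on chromosome 7 with starts 408 bases apart, and let-7f-2 and miR-98 on chromosome X with starts 611 bases apart. let-7e lies on chromosome 1 between miR-99b and miR-125a, let-7a-2 on chromosome 8 between miR-100 and miR-125b-1, and let-7c-1 on chromosome 11 between miR-99a and miR-125b-2. let-7i, on the minus strand of chromosome 7, had no listed neighbour among these. Because let-7a, let-7c and let-7f each have 2 gene copies with 1 mature guide sequence, their counts could not be assigned to a copy.

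The exosome libraries, numbered 1 and 2 and 1 whose column bears no number (called unnumbered), were shallow, with 113129 to 120224 miRNA counts each, against 2439559 to 12508651 in fibroblast libraries 1, 2 and 4. miR-873-3p alone took 84.9% to 90.1% of the exosome counts and 0.391% to 2.37% of the fibroblast counts, so levels below are given as a percent of the counts other than miR-873-3p (11825 to 18164 in exosomes). The 7 fibroblast markers, among them miR-143-3p and miR-21-5p, held 52.3% to 54.3% of these counts in fibroblasts. In exosome libraries 1, 2 and unnumbered they held 1.17%, 1.86% and 13.7%, so the unnumbered library stood apart. Counts of an entry at 0 in an exosome library allow a share of all counts of up to 0.00250% to 0.00265% (3 counts of the total), for counting error only.

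The guide strands were much scarcer in exosomes than in fibroblasts. Their summed counts were 164, 136 and 463 in exosome libraries 1, 2 and unnumbered, and 628381, 1074160 and 236528 in fibroblast libraries 1, 2 and 4. As a percent of counts without miR-873-3p this was 0.903% (95% Clopper-Pearson interval 0.770 to 1.05), 0.949% (0.796 to 1.12) and 3.92% (3.57 to 4.28) in exosomes. In fibroblasts it was 9.98%, 8.62% and 9.93%. The groups did not overlap, and the unnumbered exosome library lay between the other exosome libraries and the cells. The means were 1.92% ± 1.73 (SD, n = 3) and 9.51% ± 0.770 (SD, n = 3), a 4.95-fold difference (two-sided exact permutation test, p = 0.1, which is as low as 6 libraries allow). With miR-873-3p kept in the total they were 0.215% ± 0.151 and 9.38% ± 0.690 (SD, n = 3 each; exact permutation p = 0.1), which is 43.6-fold. Taken of all reads, those that name no listed miRNA included, the groups differed by -2.78 percentage points in place of -9.16. In bulk libraries, fewer vesicles carrying a miRNA and fewer copies per vesicle cannot be told apart.

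In the edgeR quasi-likelihood fit over all miRNAs (698 tested, p adjusted over all of them by Benjamini-Hochberg), all 8 guide strands passed the count filter, and 8 were lower in exosomes and 0 higher. Over all tested miRNAs 18.6% were lower and 11.3% higher. The median log2 fold change of the 8, exosomes over fibroblasts, was -4.72, where that of all tested miRNAs was -0.15. These figures over all miRNAs were not matched for level. Among other miRNAs abundant in fibroblasts, miR-143-3p (log2 fold change -5.75, edgeR adjusted p = 0.038) and miR-148b-3p (-5.05, edgeR adjusted p = 0.0039) were lower too. miR-127-3p (-1.65, edgeR adjusted p = 0.23) was not called. A fall of this size was thus not particular to the 8 guide strands. Scaled counts of all 8 did not overlap between the groups, which held in this direction for 24.6% of tested miRNAs. Fitted as 1 row holding their sum, which a read assigned to the wrong member does not alter, the family had a log2 fold change of -4.70 (SE 1.89, edgeR adjusted p = 0.044). Without exosome library 1 or without exosome library 2 that adjusted p was 0.16 and 0.13 and 5 of the 8 guide strands passed each time, and over all alternatives it lay between 3.9e-08 and 0.16.

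**Figure D1:**
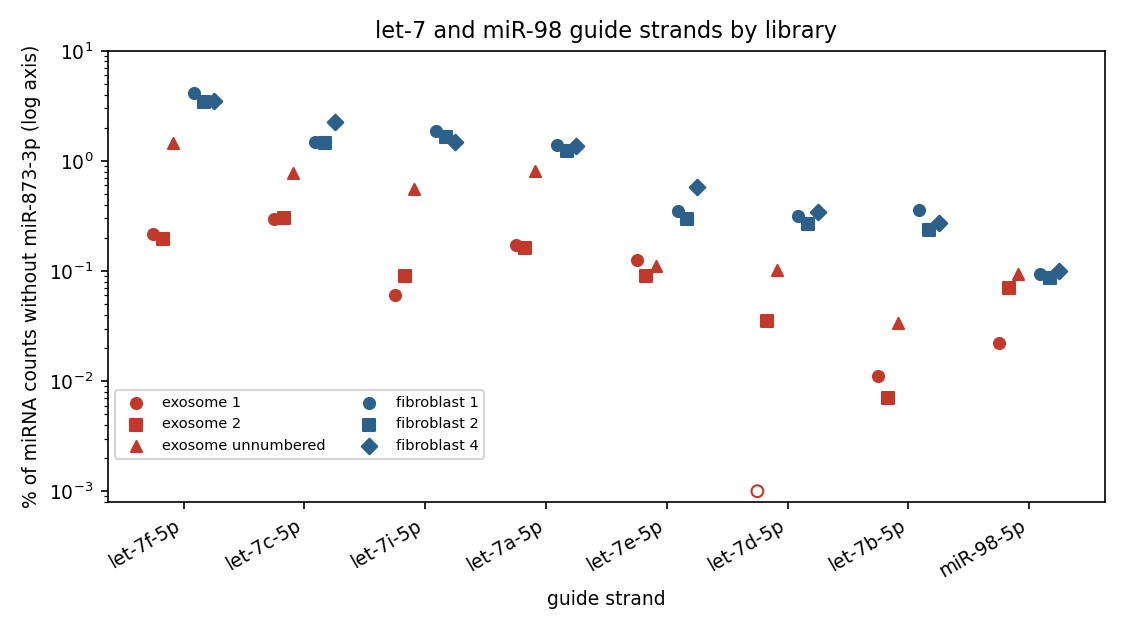
Each point is 1 library (red exosomes, blue fibroblasts); the horizontal axis names the guide strand and the log vertical axis gives its percent of miRNA counts other than miR-873-3p. The open circle marks let-7d-5p in exosome library 1, which had 0 counts and is drawn at the foot of the axis; miR-98-5p is the 1 member whose groups overlap on this scale.

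let-7f-5p, the most abundant member in fibroblasts, ranked 5 among all miRNAs there by mean scaled CPM (CPM, counts relative to library size, after the fit's scaling between libraries). Its counts were 39, 28 and 171 in exosome libraries 1, 2 and unnumbered and 260061, 424389 and 83994 in fibroblast libraries 1, 2 and 4. It made up 3.41% to 4.13% of fibroblast counts without miR-873-3p, against 0.215% and 0.195% in exosome libraries 1 and 2 and 1.45% in the unnumbered one. The groups did not overlap, and the unnumbered library was 7.05 times the mean of the other exosome libraries. The fit gave a log2 fold change of -4.77 (SE 1.59, edgeR adjusted p = 0.012), or 27.4-fold lower. Without the unnumbered library it was -7.32, and without exosome library 1 or 2 it did not pass (edgeR adjusted p = 0.10 and 0.080; alternatives gave 7.6e-10 to 0.10).

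let-7c-5p, made from hairpins on chromosomes 7 and 11, had 54, 43 and 91 exosome counts and 92774, 181270 and 54159 fibroblast counts, the libraries again in the order 1, 2, unnumbered and 1, 2, 4. Its percent was 0.297%, 0.300% and 0.770% in exosomes and 1.47%, 1.45% and 2.27% in fibroblasts, where library 4 was highest. The groups did not overlap, and the log2 fold change was -4.38 (SE 1.39, edgeR adjusted p = 0.0083). let-7a-5p, the founding sequence of the family, had 31, 23 and 95 exosome counts and 88011, 151578 and 32350 fibroblast counts. The unnumbered exosome library reached 0.803% of counts without miR-873-3p and libraries 1 and 2 stayed at 0.171% and 0.160%, all below the fibroblast range of 1.22% to 1.40%. Its log2 fold change was -4.09 (SE 1.31, edgeR adjusted p = 0.0089). Without the unnumbered library it was -6.17, and that of let-7c-5p -5.79. Without exosome library 1 and then without 2, let-7c-5p did not pass (edgeR adjusted p = 0.077 and 0.062, within 2.3e-09 to 0.077 for all alternatives). let-7a-5p did not pass either (edgeR adjusted p = 0.093 and 0.071, within 1.6e-09 to 0.093).

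let-7i-5p, which differs most from let-7a-5p in sequence, had 11, 13 and 66 exosome counts against 116815, 206699 and 34991 in fibroblasts. That was 0.0606%, 0.0907% and 0.558% of exosome counts without miR-873-3p and 1.47% to 1.85% of fibroblast counts. The groups were far apart, and the unnumbered library was 7.38 times the mean of exosome libraries 1 and 2, the widest gap among the 8. The log2 fold change of let-7i-5p was -5.0 (SE 1.41, edgeR adjusted p = 0.0025), and -7.57 without the unnumbered library.

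let-7e-5p, from the cluster with miR-99b and miR-125a, had 23, 13 and 13 exosome counts and 22100, 36611 and 13887 fibroblast counts. Its exosome percents of 0.127%, 0.0907% and 0.110% lay below the fibroblast values of 0.351%, 0.294% and 0.583%. By this percent let-7e-5p was the 1 guide strand that was not highest in the unnumbered exosome library, which stood at 1.01 times the mean of the other exosome libraries. In scaled counts let-7e-5p too was highest in that library. Its log2 fold change was -4.66 (SE 1.12, edgeR adjusted p = 0.00041) and moved only to -5.22 without that library.

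let-7b-5p and let-7d-5p were the scarcest in exosomes. let-7b-5p counts were 2, 1 and 4 in exosome libraries 1, 2 and unnumbered while fibroblast libraries 1, 2 and 4 held 22757, 29297 and 6511. The 7 exosome counts have an exact Poisson 95% interval of 2.81 to 14.4, so the size of the fold rests on very few reads. It was lower by a log2 fold change of -6.76 (SE 1.21, edgeR adjusted p = 1.8e-06), and of -8.17 without the unnumbered library. let-7d-5p, the only member that starts with A, had 0, 5 and 12 exosome counts and 19997, 33474 and 8248 in fibroblasts. The library with 0 counts had a 95% Clopper-Pearson upper limit of 0.00307% of all its counts, and fibroblasts held 0.306% ± 0.0358 (SD, n = 3) of all counts. Without miR-873-3p in the total, exosome library 1 had a 95% Clopper-Pearson upper limit of 0.0203% for let-7d-5p. On that scale exosome library 2 and the unnumbered one held 0.0349% and 0.101%, and fibroblasts 0.311% ± 0.0393 (SD, n = 3). The log2 fold change of let-7d-5p was -5.24 (SE 1.11, edgeR adjusted p = 5.1e-05), and -7.43 without the unnumbered library.

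miR-98-5p, encoded beside let-7f-2 on the X chromosome, was the least abundant guide strand in fibroblasts and had the smallest fitted change. The exosome libraries held 4, 10 and 11 of its reads and the fibroblast libraries 5866, 10842 and 2388. As a percent of counts without miR-873-3p it was 0.0220%, 0.0697% and 0.0930% in exosomes and 0.0932%, 0.0870% and 0.10% in fibroblasts. The unnumbered exosome library thus lay within the fibroblast range, and the group means differed 1.52-fold (exact permutation p = 0.2), so on this scale the difference was within the spread between libraries. With scaled counts miR-98-5p was lower by a log2 fold change of -3.20 (SE 0.82, edgeR adjusted p = 0.00085; 6.1e-07 to 0.045 over all alternatives), and of -4.22 without the unnumbered library.

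**Figure D2:**
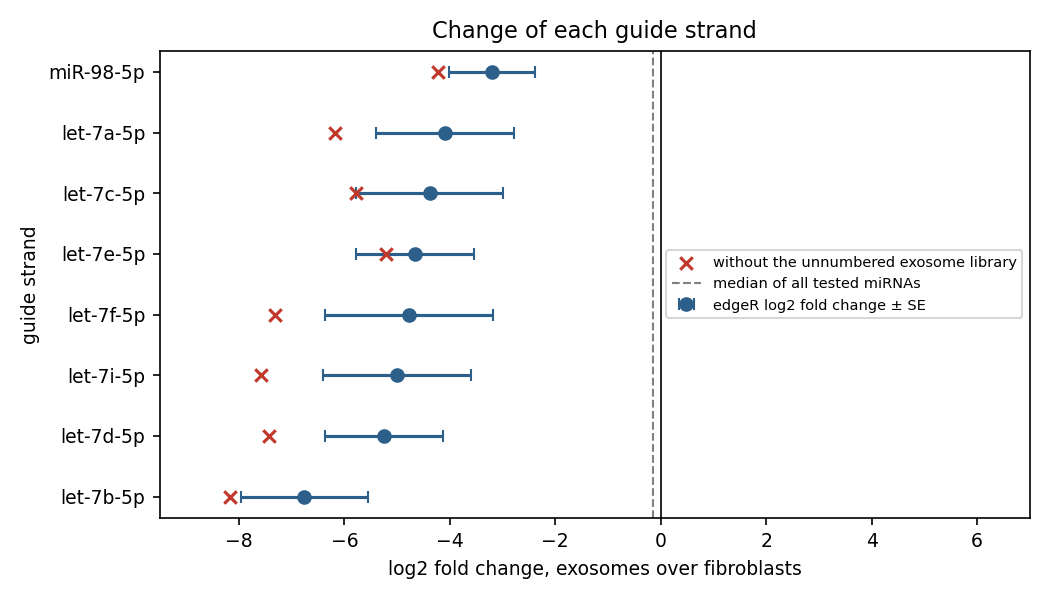
Blue points give the log2 fold change of exosomes over fibroblasts for each guide strand with its standard error (edgeR, 3 against 3 libraries), red crosses the same without the unnumbered exosome library, and the dashed line the median of all tested miRNAs (-0.15). Points run from -6.76 for let-7b-5p to -3.20 for miR-98-5p, and each cross lies to the left of its point.

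In the authors' deposited table, which divides fibroblasts by exosomes, the log2 fold change was 4.74 for let-7f-5p, 6.38 for let-7b-5p and 3.05 for miR-98-5p. The adjusted p in the authors' deposited table was under the threshold of 0.05 for 7 of the 8 guide strands, where 7.28% of its 728 miRNAs were called lower in exosomes. The exception was let-7e-5p, with a log2 fold change of 4.67 and an adjusted p of 0.059 in the authors' deposited table.

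Within fibroblasts the order of mean levels was let-7f, let-7c, let-7i, let-7a, let-7e, let-7d, let-7b and miR-98. let-7f-5p stood 2.13 times above let-7c-5p with ranges that did not meet, at 3.39% to 4.08% against 1.45% to 2.22% of all counts. let-7c-5p and let-7i-5p did not differ beyond their spread, and let-7c-5p was the higher in 1 of 3 libraries. let-7a-5p stood 3.24 times above let-7e-5p with ranges apart. The ranges of let-7e-5p and let-7d-5p overlapped, as did those of let-7d-5p and let-7b-5p. let-7b-5p stood 3.10 times above miR-98-5p, again with ranges apart. In exosomes only 1 of the 7 neighbouring steps had ranges apart, that of let-7e-5p (0.0109% to 0.0191% of all counts) above miR-98-5p (0.00333% to 0.00924%).

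The make-up of the family was compared as the percent of the 8 guide strands' summed counts that each took in a library, a measure that no scaling between libraries can move. let-7f-5p took 23.8%, 20.6% and 36.9% in exosome libraries 1, 2 and unnumbered and 41.4%, 39.5% and 35.5% in fibroblast libraries 1, 2 and 4. let-7c-5p took 32.9%, 31.6% and 19.7% against 14.8%, 16.9% and 22.9%. In exosome libraries 1 and 2 let-7c-5p was therefore the leading member, and in the unnumbered library and all fibroblast libraries let-7f-5p was. let-7a-5p took 18.8% ± 1.81 of the family in exosomes and 13.9% ± 0.227 in fibroblasts, and miR-98-5p 4.06% ± 2.86 and 0.984% ± 0.0439 (SD, n = 3 each). let-7b-5p took 0.940% ± 0.251 and 3.03% ± 0.509, and let-7i-5p 10.2% ± 3.81 and 17.5% ± 2.40 (SD, n = 3 each).

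These 4 members, let-7a-5p, miR-98-5p, let-7b-5p and let-7i-5p, had shares that did not overlap between groups (exact permutation p = 0.1 for each of the 4, as low as the design allows, with 8 members compared). Of all 140 miRNAs in tested seed families with counts in every library, 35.7% had shares that did not overlap. Without the unnumbered library 7 of the 8 did not overlap, where 65% of the 140 did not. A test over all seed families of the table (edgeR's diffSpliceDGE, 150 miRNAs in 60 families, Benjamini-Hochberg adjustment over all) asked whether a member changed by more or less than its family. It called 0 of the 8 guide strands, where 6.67% of the 150 rows were called, and 0 had an unadjusted p under 0.05. The farthest from the family were let-7b-5p, with a relative log2 fold change of -1.45 (diffSpliceDGE adjusted p = 0.26), and miR-98-5p, with 1.01 (diffSpliceDGE adjusted p = 0.34). At this depth no member could thus be shown to differ from the others in its change.

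**Figure D3:**
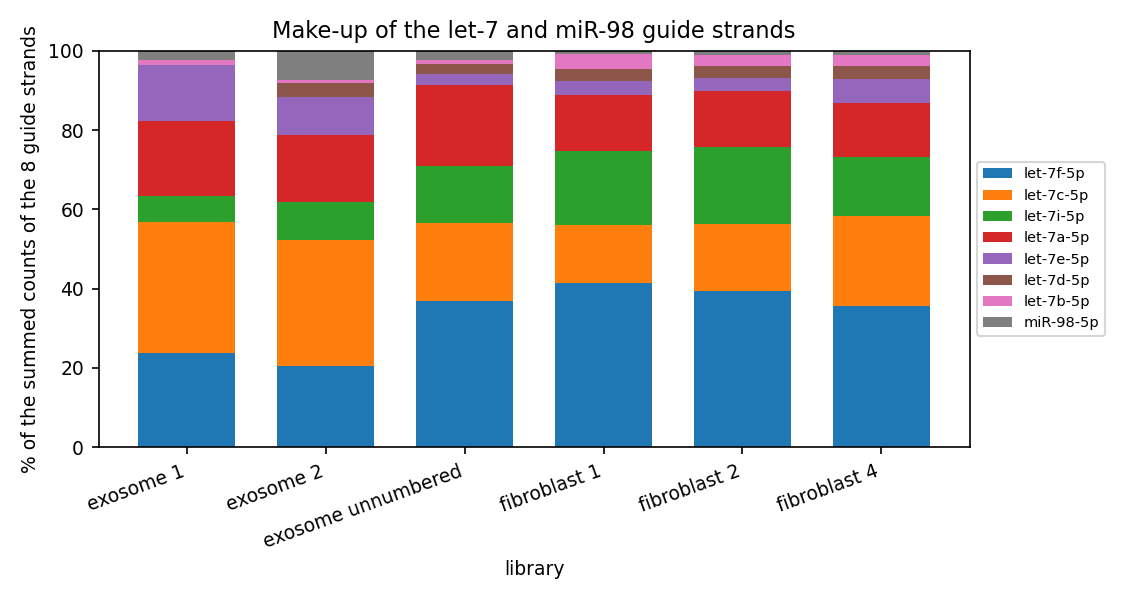
Each bar is 1 library and its colours give the percent of the 8 guide strands' summed counts that each member took, so every bar reaches 100. let-7f-5p takes 36.9% in the unnumbered exosome library, within the fibroblast range of 35.5% to 41.4%, and 20.6% to 23.8% in exosome libraries 1 and 2.

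The unnumbered exosome library was also the one in which fibroblast markers were highest. miR-143-3p, the most abundant fibroblast miRNA, had 15, 72 and 646 counts in exosome libraries 1, 2 and unnumbered. miR-21-5p had 76, 59 and 285 in the same libraries, and miR-22-3p 76, 108 and 594. For each count of miR-143-3p there were 10.9, 1.89 and 0.717 guide strand counts in these libraries and 0.349 to 0.428 in fibroblasts. For each count of miR-21-5p there were 2.16, 2.31 and 1.62, and 0.870 to 1.21 in fibroblasts. Per count of either miRNA the guide strands were thus more frequent in every exosome library than in any fibroblast library. Endothelial markers (2 of 2 found) held 0.639% to 0.973% of exosome counts without miR-873-3p and 0.0101% to 0.0156% of fibroblast counts. In exosome libraries 1, 2 and unnumbered, 113, 91 and 98 of these counts were miR-126a-3p. The other, miR-126a-5p, had 3, 4 and 17 and was not called (log2 fold change 0.30, edgeR adjusted p = 0.78). Blood markers (6 of 7 found) held 0.187% to 0.216% and 0.0109% to 0.0384%, cardiomyocyte markers (6 of 6) 0.0254% to 0.0771% and 0.00810% to 0.0172%, and liver and serum markers (3 of 3) 0.0976% to 0.154% and 0.139% to 0.149%. The exosome shares of these lists rest on few counts in libraries 1, 2 and unnumbered. Blood markers had 34, 31 and 23, cardiomyocyte markers 14, 9 and 3, and liver and serum markers 28, 14 and 17. None of these markers was at 0 in all exosome libraries, and their part in the guide strand result was not tested.

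Of the passenger strands of the same hairpins the table lists 11, of which 10 passed the count filter, and 1 was lower in exosomes and 0 higher (18.6% and 11.3% over all tested miRNAs). The 1 was let-7d-3p, with 10, 9 and 14 exosome counts and 4476, 4080 and 1936 fibroblast counts and a log2 fold change of -2.35 (SE 0.75, edgeR adjusted p = 0.0088). let-7f-1-3p had 0 counts in every exosome library and only 101, 378 and 27 in fibroblasts and was not called (edgeR adjusted p = 0.067). The 4 with the smallest adjusted p were completed by miR-98-3p (log2 fold change -1.88, SE 0.84) and let-7i-3p (log2 fold change -1.52, SE 0.69), with edgeR adjusted p of 0.073 and 0.081. The median log2 fold change of the 10 was -1.44, and -1.40 leaving out let-7f-1-3p, against -4.72 for the guides.

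Summed over all hairpins, passenger strands had 59, 49 and 30 counts in exosome libraries 1, 2 and unnumbered and 8103, 16194 and 3222 in fibroblast libraries 1, 2 and 4. They made up 26.5%, 26.5% and 6.09% of the let-7 and miR-98 counts of both arms in exosomes (95% Clopper-Pearson intervals 20.8 to 32.8, 20.3 to 33.5 and 4.14 to 8.57). In fibroblasts they made up 1.27%, 1.49% and 1.34%. The groups did not overlap, with means of 19.7% ± 11.8 and 1.37% ± 0.108 (SD, n = 3 each; exact permutation p = 0.1). Against counts without miR-873-3p, passenger strands stood at 0.307% ± 0.0467 in exosomes and 0.131% ± 0.00350 in fibroblasts (SD, n = 3 each). With miR-873-3p in the total the order was the opposite, 0.0392% ± 0.0125 and 0.130% ± 0.00251.

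let-7e showed this within a single hairpin of 1 gene copy. The hairpin is printed because both arms (in capitals, the guide first and the passenger second) come from this 1 precursor, chr1:67350229-67350321 in GRCr8, plus strand.
let-7e hairpin: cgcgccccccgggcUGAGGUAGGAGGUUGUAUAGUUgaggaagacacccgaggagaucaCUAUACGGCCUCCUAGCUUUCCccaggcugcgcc

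let-7e-3p had 26, 8 and 9 counts in exosome libraries 1, 2 and unnumbered, next to the 23, 13 and 13 of let-7e-5p, and 967, 3442 and 271 in fibroblasts. The passenger strand therefore held 53.1%, 38.1% and 40.9% of the 2 arms in exosomes and 4.19%, 8.59% and 1.91% in fibroblasts. For let-7b, also of 1 copy, the passenger share was 60.0%, 88.9% and 42.9% against 2.03% to 3.37%, on 5, 9 and 7 exosome counts of both arms. For let-7d it was 100%, 64.3% and 53.8% against 10.9% to 19.0%. Of the 8 hairpin groups, 6 had passenger shares that did not overlap between exosomes and fibroblasts. let-7f and miR-98 overlapped through the unnumbered library, where their passenger strands had 0 counts. In that library let-7a, let-7c and let-7i stayed apart on only 2, 1 and 1 passenger counts. For let-7i this was 1.49%, against up to 1.11% in fibroblasts, so these separations rest on very few reads. Over all 268 hairpins with both arms listed and counts in every library, the share of the arm scarcer in fibroblasts lay wholly higher in exosomes in 30.2%.

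**Figure D4:**
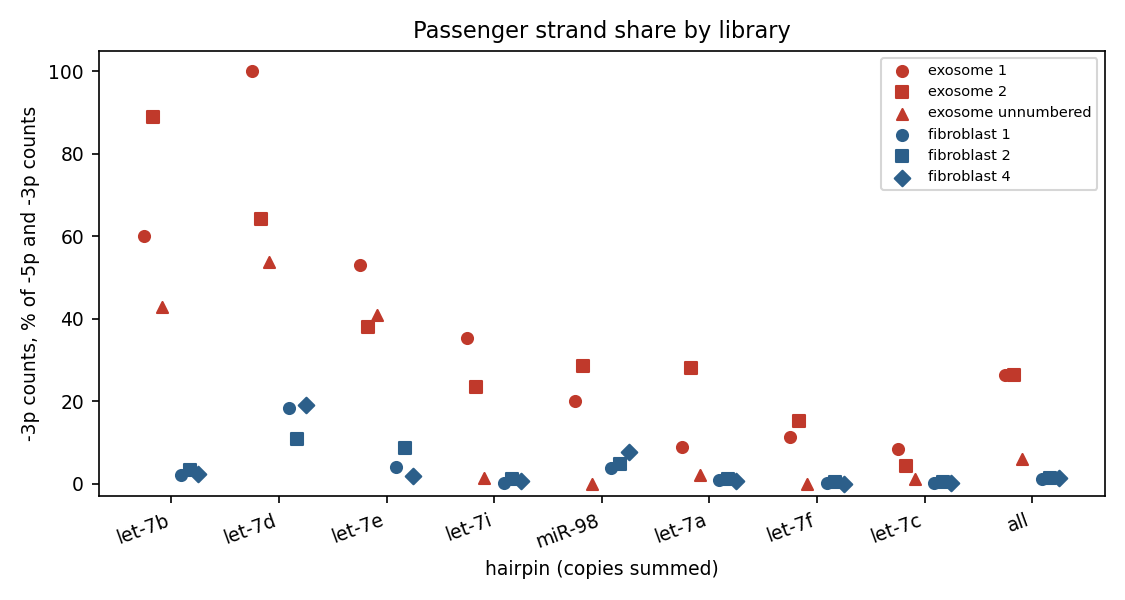
For each hairpin, with gene copies summed, points give -3p counts as a percent of -5p and -3p counts in 1 library (red exosomes, blue fibroblasts). Over all hairpins exosome libraries 1 and 2 lie at 26.5%, the unnumbered one at 6.09%, and the fibroblast libraries between 1.27% and 1.49%.

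Arm usage was tested over all hairpins with both arms listed (edgeR's diffSpliceDGE, 557 arms of 269 hairpins, Benjamini-Hochberg adjustment over all). Of the 8 guide strands 0 was called. They held most fibroblast counts of their hairpins and so largely set the change they were compared with. Of the 10 tested passenger strands 6 rose relative to their hairpin. Over all arms 13.6% were called in either direction, but abundant and scarce arms both enter there, so it is not the share for scarce arms. The 6 were let-7b-3p (relative log2 fold change 3.32, diffSpliceDGE adjusted p = 2.0e-06), let-7f-2-3p (2.75, 0.00029), let-7e-3p (2.59, 2.1e-05), let-7i-3p (2.52, 0.00051), let-7c-1-3p (2.48, 0.0035) and let-7a-1-3p (1.87, 0.041). Across the whole table, the arm that was scarcer in fibroblasts had the higher log2 fold change in 73.6% of the 250 hairpins with exactly 2 tested arms, and in 6 of 6 such let-7 and miR-98 hairpins. Without exosome library 1 the test called 2 passenger strands, and without fibroblast libraries 1, 2 and 4 it called 2, 1 and 1, where the filter left only 3, 2 and 2 of them to test.

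let-7a-1-3p and let-7c-2-3p have the same mature sequence in RefSeq, shown here because 2 entries with 1 sequence should draw on the same reads.
let-7a-1-3p and let-7c-2-3p: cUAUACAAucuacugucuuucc

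Their counts nevertheless differed, with 396, 331 and 234 for let-7a-1-3p and 24, 121 and 3 for let-7c-2-3p in fibroblast libraries 1, 2 and 4. How reads were divided between them is not given in the sources used here, so the values of both are uncertain.

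The 4 miR-3596 entries lie on the opposite strand of let-7 guide sequences: the reverse complement of miR-3596a, miR-3596b, miR-3596c and miR-3596d is contained in let-7a-5p, let-7d-5p, let-7e-5p and let-7f-5p. Whether counting used the strand is not given in the sources used here. miR-3596a had 16, 59 and 4 counts in fibroblasts, miR-3596b 66, 226 and 8, miR-3596c 28, 184 and 15, and miR-3596d 468, 481 and 52, far fewer than the guide strands opposite them. Of the 3 that passed the filter 1 fell in exosomes and 0 rose (18.6% lower and 11.3% higher over all tested miRNAs). The 1 was miR-3596d, which had 1, 1 and 0 exosome counts and a log2 fold change of -2.81 (SE 1.08, edgeR adjusted p = 0.032). miR-3596b and miR-3596c, with 8 and 9 exosome counts in all, had log2 fold changes of 1.53 (SE 1.02) and 1.95 (SE 1.02) and were not called.

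The miRNAs encoded beside let-7 were read from a list of the miR-99a, miR-99b, miR-100, miR-125a and miR-125b entries, both arms. Of 11, all tested, 7 fell in exosomes, 1 rose and 3 did not pass, and the median of their log2 fold changes was -2.60 (18.6% lower, 11.3% higher and a median of -0.15 over all tested miRNAs). All 5 of the -5p strands were lower, with a median of -4.24, near that of the let-7 guides. Of the 6 -3p strands 2 were lower, 1 was higher and 3 did not pass, with a median of -0.15. Among the 4 with the smallest adjusted p, miR-125b-1-3p, transcribed near let-7a-2, fell by 4.40 on the log2 scale (SE 1.14, edgeR adjusted p = 0.0010), as did miR-125a-5p (-4.24, SE 1.16, edgeR adjusted p = 0.0019), beside let-7e. miR-99b-5p, on the other side of let-7e, was lower as well (-4.45, SE 1.26, edgeR adjusted p = 0.0026). The 1 that rose was miR-99a-3p, the passenger strand of the hairpin next to let-7c-1. It had 83, 87 and 82 exosome counts and 401, 1125 and 197 fibroblast counts, and its log2 fold change was 3.71 (SE 0.78, edgeR adjusted p = 4.9e-05).

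The miRNAs whose pattern over the 6 libraries was most like that of the summed guide strands were miR-148b-3p, miR-199a-3p, miR-151-3p, miR-21-5p and miR-192-5p, out of 417 with a mean scaled CPM of 50 or more. Pearson's r of log2 CPM was 0.999 for miR-148b-3p and 0.998 for the other 4; the libraries form 2 groups and share depth and scaling, so r is only a description of likeness. miR-148b-3p had 17, 19 and 85 exosome counts and 159866, 241682 and 51189 fibroblast counts, with the same high unnumbered library as the guide strands.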

How the data were processed

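Small RNA libraries were sequenced from 3 exosome and 3 fibroblast samples. The authors deposited raw counts per mature miRNA, which entered every test here, a normalized signal (a library's values are its counts over a single size factor), and a DESeq comparison with fold change (ratio), log2 fold change and adjusted p-value, per the file headers. The submitters' processing notes name CASAVA 1.8.2, cutadapt 1.2.1, DESeq and build rn5; the aligner, the counting rule and the miRNA release are not stated in the labels or headers. Samples were found by column name, and 1 exosome column has no number. The row of the normalized table that names no miRNA held 63.1% to 84.4% of reads and stayed out of the tests.

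Counts were fitted in R 4.3.3 with edgeR 4.0.16 (scaling by TMM, filterByExpr at minimum count 10 and total 15, quasi-likelihood test, two-sided, Benjamini-Hochberg adjustment over 698 tested miRNAs, threshold 0.05). The SE was derived from F, as the absolute log2 fold change over the root of F. The biological coefficient of variation was 54.3%. Seed families and hairpins were tested with diffSpliceDGE; shares used exact two-sided permutation tests over libraries. The fits were tested on simulated data. Intervals and floors cover counting error only: amplified reads without molecular identifiers are not separate molecules. Libraries of a group differed by more than sampling noise (chi-square over its degrees of freedom at least 4.10). Named miRNAs were the 8 members, miR-873-3p, 3 abundant fibroblast miRNAs and the 5 most alike in pattern. From each other list they were all entries if 5 or fewer, and otherwise the 4 with the smallest adjusted p. let-7b-3p, let-7e-3p, let-7a-1-3p, let-7c-2-3p, let-7c-1-3p, let-7f-2-3p, miR-99a-3p and miR-127-3p were chosen after their values were seen or for their sequence. The members and lists were chosen with earlier results of these data known, and the arm comparison was added after seeing the data. Alternatives were DESeq2 1.42.0, other scalings, no filter, reads recovered from the normalized table (each within 0.00131 of a whole number), thinned fibroblast libraries, a replicate block and leaving out each library.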

Additional observations from a re-analysis of the deposited data

How the results depend on the processing

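Under 15 alternatives, each run for the 8 guide strands, all 120 log2 fold changes stayed below 0 and 114 stayed on their side of the threshold. The 6 that did not were let-7a-5p, let-7c-5p and let-7f-5p without exosome library 1 and without exosome library 2, where the edgeR fits called 5 of the 8; over the libraries left out in turn the number called was 5 to 8. The log2 fold change of the summed row went from -6.56 to -4.21 over the libraries left out, and its edgeR adjusted p was above 0.05 without exosome library 1 and 2 (0.16 and 0.13). The cause was not tested, although these fits leave 2 exosome libraries that differ from each other. The TMM factors ran from 0.432 (unnumbered exosome library) to 1.99 (fibroblast library 2). No alternative fit used the scale of the percents above, unscaled counts without miR-873-3p. On that scale the group means differed 4.95-fold for the summed guide strands and 1.52-fold for miR-98-5p, whose groups overlapped. The size of the change thus depended on the scale.

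Leaving out a library moved the difference in share (exosomes minus fibroblasts) between -9.56 and -8.93 percentage points of all counts and between -8.58 and -7.08 without miR-873-3p. The number of members whose family shares did not overlap was 4 to 7, with 7 without the unnumbered exosome library, and the passenger share difference 14.9 to 25.1 percentage points. Passenger strands called by arm usage were 1 to 7; the count filter left fewer of them without a fibroblast library. The usage test within the seed family called 0 of 8 members under each of its 9 alternatives, with up to 2 at an unadjusted p under 0.05.

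Libraries 1 and 2 of both groups share a number, with no label saying that it marks a shared culture. With a replicate block the unnumbered exosome library and fibroblast library 4 each formed a block of their own. They added nothing to the group difference, which thus rested on libraries 1 and 2 of both groups. In that fit the 8 guide strands were again lower and the summed row had a log2 fold change of -6.27 (edgeR adjusted p = 0.0054). Leaving out the unnumbered library, with no block, gave -6.56. Same-numbered pairs differed on average by -9.09 percentage points of all counts and -8.37 without miR-873-3p. Deviations from the group means correlated at -0.07 and 0.16 in same-numbered pairs. They correlated at 0.21 between exosome library 1 and fibroblast library 2, and at -0.007 between exosome library 2 and fibroblast library 1. Exosome depth limits the folds of let-7b-5p, let-7d-5p and miR-98-5p and of every passenger strand, which rest on 0 to 43 exosome counts in all.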
